A study of Mus musculus with 32 samples.

Results

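A set of 10 genes of the Wnt pathway was followed through all 32 RNA-seq libraries of mouse tendon assembloids: the ligand Wnt5a, the secreted antagonists and modulators Sfrp1, Sfrp2, Sfrp4, Frzb, Dkk2 and Dkk3, and Axin2, Lef1 and Ccn4, which are known targets of the pathway. These 10 were a fixed list among the 25700 genes counted and were not chosen by a threshold on these values. The list was, however, chosen with earlier results of these data known. All 10 passed the filter on low counts in at least 1 comparison and 8 of them in every comparison, while Frzb passed in 7 and Lef1 in 6 of the 11 fits.

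An assembloid joins a clamped fascicle of mouse tail tendon (the core) with a collagen-1 hydrogel cast around it, and the compartments were sequenced apart after 7 days of co-culture. The hydrogel groups held Achilles tendon cells, labelled progenitors and called fibroblasts here, around cores from Il-6-/- mice (KO core, n = 6) or from Il-6+/+ mice (WT core, n = 6). The core groups of 4 libraries each were KO cores with fibroblasts, WT cores with macrophages, WT cores with fibroblasts, KO cores in cell-free hydrogel and WT cores in cell-free hydrogel. All cores came from adult mice of both sexes of the line B6.129S2-Il6tm1Kopf/J, and the seeded cells were Il-6+/+ in every hydrogel. Each core library pooled fascicles of a single mouse, so replicates within a core group are taken as separate animals. Cores of the same number and genotype share a run code and an N number, so groups may share mice. Ddx3y, a Y chromosome gene, was above 50 CPM in replicates 3 and 4 of each WT core group. It was above 50 CPM in replicates 2 and 4 of both KO core groups, and at most 5.47 CPM in the other cores. In hydrogels, by replicate, Ddx3y read 100, 8.73, 80.3, 25.2, 29.0 and 89.4 CPM around KO cores. Around WT cores it read 10.2, 12.7, 21.4, 79.2, 72.2 and 78.4 CPM, so same-numbered hydrogels could differ widely. The part of donor sex in the hydrogel comparisons was not tested. Sharing of mice between groups was not tested, and the main fits treat groups as unpaired. Each hydrogel library pooled 2 hydrogels that held seeded cells, themselves mixed from several mice, together with any cells that had left the core. Hydrogel libraries are therefore a mixture of cell types, and in all these bulk samples fewer cells of a type and less RNA per cell cannot be told apart.

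Wnt proteins are secreted ligands that bind Frizzled receptors. In the canonical branch they stabilise beta-catenin, which then acts with TCF and LEF factors on genes such as Axin2, whereas Wnt5a signals mostly through branches that do not need beta-catenin. Frizzled-related proteins (the Sfrp family, Frzb included) bind Wnts outside the cell, and Dickkopf proteins such as Dkk2 bind the LRP co-receptors. In tendon and other skeletal tissues these antagonists are known as markers of particular fibroblast populations as well as brakes on the pathway.

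Library totals ranged from 20360289 to 59860703 counts, and levels are given as CPM (the count scaled to a common library size) after TMM scaling over all 32 libraries. The count of Il6, made over the gene as a whole, was no check of the labels, since it was not lower in KO cores. Il6 read 10.5 to 36.7 CPM in KO cores with fibroblasts and 6.38 to 20.2 CPM in KO cell-free cores, against 5.00 to 11.8 CPM in WT cores with fibroblasts and 1.84 to 11.2 CPM in WT cell-free cores. With fibroblasts, the log2 fold change of KO over WT cores was 1.30 ± 0.39 (edgeR unadjusted p = 0.00762, adjusted p = 0.48). Hydrogels held 6.10 to 43.1 CPM around KO cores and 4.64 to 10.5 CPM around WT cores (1.03 ± 0.44, edgeR unadjusted p = 0.0376, adjusted p = 0.9997). The reason for these levels was not tested. KO and WT are thus used as the labels give them, and every KO direction below rests on those labels. The paper compared IL-6 protein in supernatants of KO and WT cores in a separate experiment. All 8 tendon fibroblast markers examined (Scx and Tnmd among them) were detected in every library, with summed levels of 15498 to 67453 CPM in the KO hydrogels, 20608 to 47103 CPM in the WT hydrogels and 19121 to 56426 CPM in the cores. Macrophage and leukocyte markers were also present in every group, and their sum was not higher in cores kept with macrophages (4614 to 11268 CPM) than in WT cell-free cores (8960 to 12457 CPM). The KO hydrogel replicate 5 stood apart from the other hydrogels, with the highest tendon marker sum (67453 CPM) and the lowest macrophage marker sum (2266 CPM, against 9487 to 29795 CPM in the other 11).

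**Figure D1:**
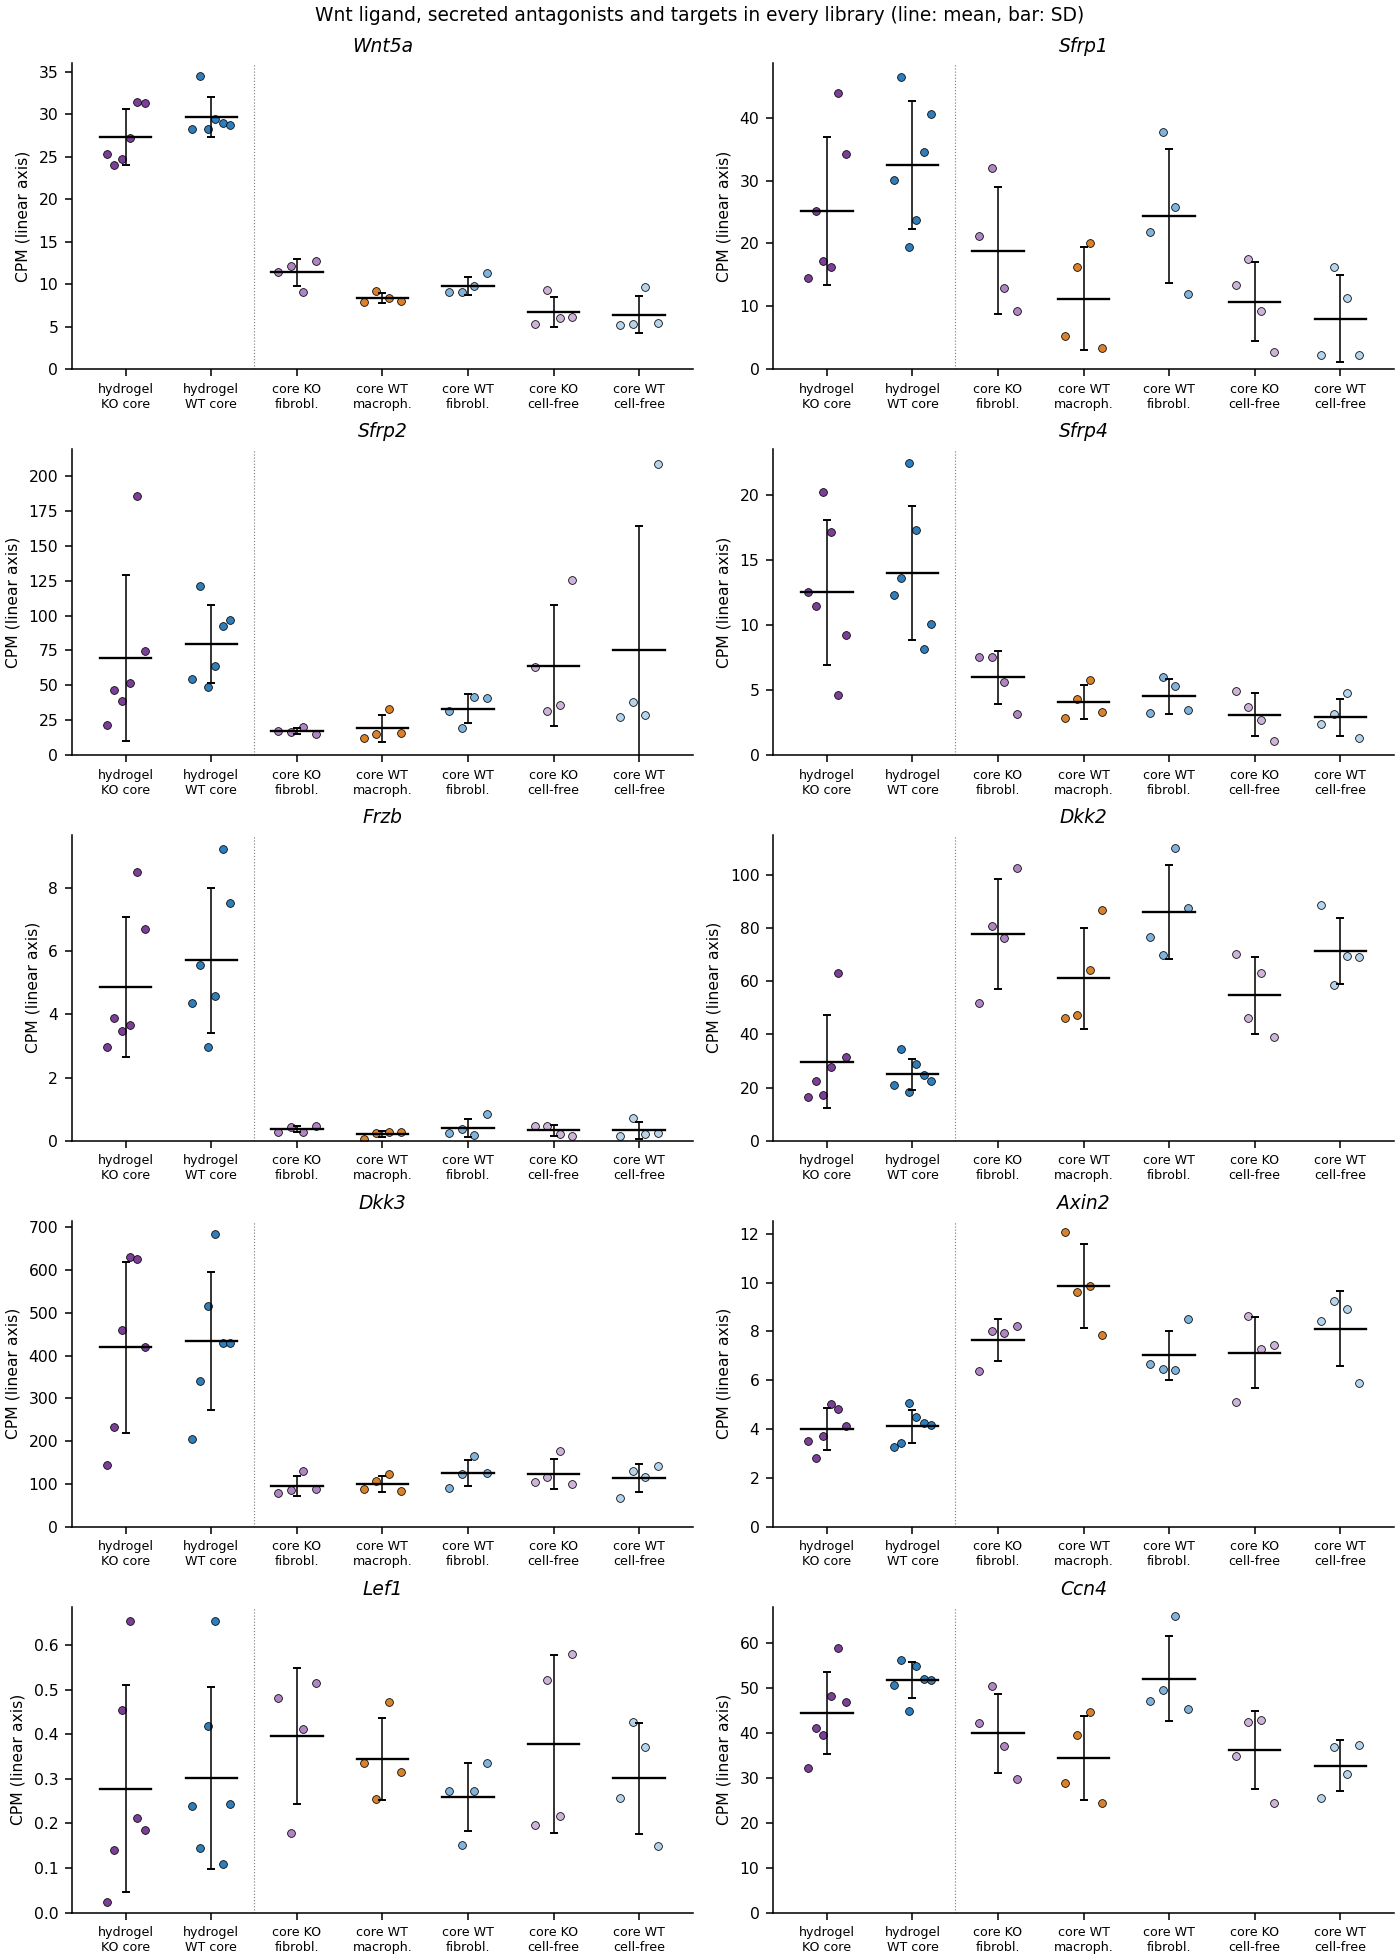
Level of each gene in CPM (linear axis from 0) in the 7 groups; points are libraries, horizontal lines group means and bars the SD, and the dotted line parts hydrogels from cores. Wnt5a (24.1 to 34.5 CPM in hydrogels, 5.20 to 12.8 CPM in cores), Frzb and Axin2 separate the compartments in every library, while Lef1 stays below 0.66 CPM throughout.

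Most of the genes that passed did so between the compartments, where many of all genes passed too. In WT assembloids, Wnt5a, Sfrp2, Sfrp4, Frzb and Dkk3 were higher in the hydrogel than in the core surrounded by it, and Dkk2 and Axin2 were lower, so that 7 of the 9 genes tested passed an adjusted p of 0.05 with a log2 fold change beyond 0.5 (edgeR quasi-likelihood test, Benjamini-Hochberg over all genes). Of all 16037 genes tested, 18.1% were higher and 24.7% lower by this rule. In KO assembloids 6 of 10 passed, with Wnt5a, Sfrp2, Frzb and Dkk3 higher and Dkk2 and Axin2 lower, against 17% of all genes higher and 24.6% lower. The median log2 fold change was 1.19 over the 9 genes tested in WT and 0.63 over the 10 tested in KO assembloids. The median of all genes was 0.00 in both. The KO set adds Lef1 (-0.68), a gene of few counts, so the medians are not over the same genes. Hydrogel and core libraries did not overlap for 7 of the 9 tested genes in WT assembloids, against 56.8% of all genes. In KO assembloids they did not overlap for 5 of 10, against 45.1% of all genes, so the KO share was near that of all genes.

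Wnt5a, the ligand, read 25.3, 24.1, 24.7, 27.2, 31.5 and 31.3 CPM in the hydrogels around KO cores. It read 28.3, 34.5, 28.2, 29.4, 29.0 and 28.8 CPM in those around WT cores. The 20 cores lay between 5.20 and 12.8 CPM with a median of 9.07 CPM, so that no hydrogel overlapped with any core and the hydrogel mean was 3.34 times the core mean. Within each genotype, the log2 fold change of hydrogel over core was 1.15 ± 0.11 (SE) in KO assembloids (edgeR adjusted p = 2.5e-05) and 1.52 ± 0.09 in WT assembloids (edgeR adjusted p = 2.02e-07). The order of the group means ran from WT and KO hydrogels through KO cores with fibroblasts, WT cores with fibroblasts and WT cores with macrophages to the cell-free cores, and neighbours in this order overlapped except at the step from hydrogel to core.

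The Frizzled-related antagonists were mostly higher in the hydrogel, each with its own spread. Frzb, also named Sfrp3, was near the floor of detection in cores, with 2 to 25 counts per library, and read 0.283, 0.446, 0.285 and 0.468 CPM in KO cores with fibroblasts. In hydrogels it ranged from 2.97 to 8.51 CPM around KO cores (median 3.78 CPM) and from 2.98 to 9.23 CPM around WT cores (median 5.08 CPM). No hydrogel overlapped with a core, and the log2 fold change of hydrogel over core was 3.60 ± 0.37 in KO assembloids (edgeR adjusted p = 4.21e-05) and 3.74 ± 0.45 in WT assembloids (edgeR adjusted p = 1.84e-05), the largest of the genes tested in each genotype.

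Sfrp2, a Wnt-binding protein made by many stromal fibroblasts, ranged from 21.6 to 186 CPM in KO hydrogels (median 48.9 CPM) and read 17.2, 16.4, 20.3 and 14.9 CPM in KO cores with fibroblasts. In WT assembloids it ranged from 49.0 to 121 CPM in the hydrogels (median 78.2 CPM) and read 31.3, 19.0, 41.4 and 40.9 CPM in the cores. Within each genotype every hydrogel lay above every core, with log2 fold changes of 1.87 ± 0.51 (KO, edgeR adjusted p = 0.00927) and 1.19 ± 0.29 (WT, edgeR adjusted p = 0.00293). Cell-free cores, which were not part of these comparisons, reached 208 CPM, so high Sfrp2 was not confined to hydrogels.

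Sfrp4, another Frizzled-related protein, ranged from 4.61 to 20.2 CPM in KO hydrogels and from 3.18 to 7.53 CPM in KO cores with fibroblasts. These groups overlapped through KO hydrogel replicate 5, which held the 4.61 CPM. The log2 fold change was 0.96 ± 0.40 in KO assembloids (edgeR adjusted p = 0.0598), and it passed without that library (1.15 ± 0.29, edgeR adjusted p = 0.00574), without KO hydrogel replicate 6 (1.07 ± 0.40, edgeR adjusted p = 0.0451) with DESeq2 (0.99, adjusted p = 0.0209), and in the fit with a replicate block that paired each core with the hydrogel of the same run code and N number in the titles (1.17 ± 0.16, edgeR adjusted p = 0.000369). In WT assembloids Sfrp4 ranged from 8.17 to 22.4 CPM in hydrogels and from 3.26 to 5.99 CPM in cores, with a log2 fold change of 1.55 ± 0.29 (edgeR adjusted p = 0.00045). Sfrp1 did not pass in either genotype, with log2 fold changes of 0.29 (95% interval -0.47 to 1.05) in KO and 0.34 (-0.24 to 0.92) in WT assembloids.

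The Dickkopf genes parted. Dkk3, a divergent member of the family, ranged from 143 to 632 CPM in KO hydrogels (median 440.1 CPM) and from 78.7 to 130 CPM in KO cores with fibroblasts, a log2 fold change of 1.99 ± 0.39 (edgeR adjusted p = 0.0015). In WT assembloids it ranged from 205 to 685 CPM in hydrogels and from 91.6 to 165 CPM in cores, a log2 fold change of 1.70 ± 0.28 (edgeR adjusted p = 0.000208). Dkk2, which binds the LRP co-receptors, went the other way. It ranged from 16.3 to 63.1 CPM in KO hydrogels (median 25.1 CPM) and read 51.8, 80.6, 76.2 and 102 CPM in KO cores with fibroblasts, a log2 fold change of -1.52 ± 0.34 (edgeR adjusted p = 0.00309). It ranged from 18.4 to 34.5 CPM in WT hydrogels and read 76.5, 69.6, 110.0 and 87.3 CPM in WT cores with fibroblasts, a log2 fold change of -1.85 ± 0.16 (edgeR adjusted p = 2.44e-06). KO hydrogel replicate 5, at 63.1 CPM, was the only hydrogel that reached into the core range of Dkk2. Without it the KO log2 fold changes of hydrogel over core were -1.84 ± 0.23 for Dkk2 and 1.34 ± 0.29 for Sfrp2, and all 6 calls in KO assembloids held.

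Of the target genes, Axin2, the feedback scaffold that is induced by beta-catenin and limits it, was lower in every hydrogel than in any core. It read 3.51, 2.80, 3.72, 5.05, 4.82 and 4.13 CPM in KO hydrogels and 3.25, 3.43, 5.08, 4.49, 4.27 and 4.18 CPM in WT hydrogels, against 5.13 to 12.1 CPM in the 20 cores. The log2 fold change of hydrogel over core was -1.06 ± 0.16 in KO assembloids (edgeR adjusted p = 0.000313) and -0.86 ± 0.14 in WT assembloids (edgeR adjusted p = 0.000197). Ccn4, a matricellular protein also known as WISP1, showed no compartment difference that passed, with log2 fold changes of 0.03 (95% interval -0.28 to 0.35) in KO and -0.09 (-0.28 to 0.10) in WT assembloids. Lef1, the transcription factor that partners beta-catenin, held only 1 to 35 counts per library, between 0.023 and 0.655 CPM. It was not tested in 5 of the 11 fits, WT assembloids among them, and passed in none of the other 6. Without KO replicate 2 it entered the comparison of KO with WT cores with fibroblasts and passed there at the study's thresholds (0.86 ± 0.33, edgeR unadjusted p = 0.0287, adjusted p = 0.644).

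**Figure D2:**
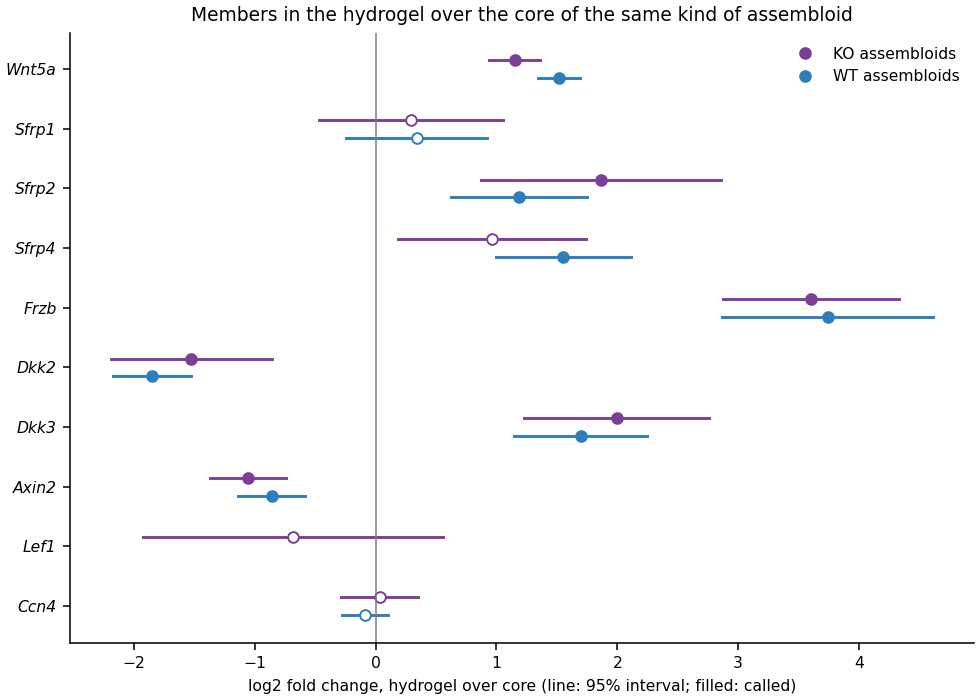
Log2 fold change of each gene, hydrogel over core with fibroblasts, in KO (upper point) and WT (lower point) assembloids; lines are 95% intervals and filled points passed the adjusted p and the fold threshold. Frzb lies highest (3.60 and 3.74), Dkk2 and Axin2 lie below 0 in both genotypes, and Sfrp1 and Ccn4 span 0; Lef1 was tested in KO assembloids only.

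The stretches of 120 bases before the start sites of Frzb, Dkk2 and Axin2 are shown because these genes passed between the compartments in both genotypes, Frzb as higher and Dkk2 and Axin2 as lower in the hydrogel, and had a window to read; Wnt5a and Dkk3 had none, and Sfrp2, which also passed and had one, is not shown. They come from RefSeq windows of GRCm38.p6, an older build than the GRCm39 named in the processing notes of these libraries, and windows were found for 5 of the 10 genes. Each runs 5′ to 3′ on the strand of its gene, and capitals mark matches to 3 motifs searched on both strands over the whole window of 300 bases: a TCF/LEF core (CTTTGA), a STAT element (TTCNNNGAA) and a TATA box (TATAAA).
Frzb: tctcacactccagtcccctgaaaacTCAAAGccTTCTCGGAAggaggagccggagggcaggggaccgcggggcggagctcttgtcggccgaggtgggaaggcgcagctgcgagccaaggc
Dkk2: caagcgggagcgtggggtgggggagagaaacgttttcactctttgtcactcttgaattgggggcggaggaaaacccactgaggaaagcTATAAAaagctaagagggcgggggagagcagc
Axin2: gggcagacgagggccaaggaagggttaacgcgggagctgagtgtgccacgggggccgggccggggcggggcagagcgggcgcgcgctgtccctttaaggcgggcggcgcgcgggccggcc
Frzb (chr2:80447397-80447516, minus strand) held the TCF/LEF core in reverse complement at 95 to 90 bases before the start and a STAT element at 87 to 79 bases before it. Dkk2 (chr3:132085172-132085291, plus strand) held a TATA box at 32 to 27 bases before the start. Axin2 (chr11:108920229-108920348, plus strand) held no match in its window, which had 31 CpG dinucleotides where the median window had 7. The TCF/LEF core occurred in 16% of all 32851 windows, the STAT element in 8.3% and the TATA box in 13.6%, so a match describes these letters and not a site in use.

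Other Wnt genes are given for context. Of 78 genes in 6 lists (ligands, receptors, the R-spondin axis, other antagonists, intracellular transducers and further targets), 17 of the 58 tested were higher and 10 lower in the KO hydrogel, and 18 of 59 were higher and 14 lower in the WT hydrogel. In KO assembloids these were 29.3% higher and 17.2% lower, against 17% and 24.6% of all genes. In WT assembloids they were 30.5% higher and 23.7% lower, against 18.1% and 24.7% of all genes. The median log2 fold changes were 0.08 (KO) and 0.15 (WT). Among ligands, Wnt11 and Wnt10a were higher in the hydrogel and Wnt16 and Wnt9a lower in both genotypes. Wnt16 averaged 30.4 ± 11.7 CPM in KO hydrogels and 113 ± 14 CPM in KO cores with fibroblasts. Wnt10a was near the floor, at 0.48 ± 0.23 CPM in KO hydrogels and 0.057 ± 0.026 CPM in KO cores with fibroblasts. Among co-receptors, Ror1 and Lrp6 were lower and Ptk7 was higher in both. The R-spondin axis, which amplifies Wnt signals through Lgr receptors, did not move as a group: 3 of 7 genes tested were higher in each genotype (Rspo1, Rspo2 and Lgr6), 1 was lower in KO and 2 in WT assembloids, and the median log2 fold changes were -0.07 and -0.06. The secreted Rspo1 and Rspo2 had log2 fold changes of 3.10 ± 0.58 (KO) and 2.88 ± 0.29 (WT) for Rspo2 and 2.82 ± 0.45 (KO) and 2.64 ± 0.39 (WT) for Rspo1, while the receptor Lgr4 was lower in the hydrogel (-0.82 ± 0.25 in KO and -0.81 ± 0.13 in WT assembloids). The KO call of Lgr4 was lost without KO hydrogel replicate 1 or KO core replicate 4 (adjusted p up to 0.134, edgeR), and that of Ccn5 without KO core replicate 4 (adjusted p = 0.0515, edgeR). Notum, a secreted enzyme that removes the lipid from Wnts, rose by 3.47 ± 0.44 (KO) and 3.69 ± 0.27 (WT) on the log2 scale, and Wif1, a Wnt-binding inhibitor, fell to 2.69 ± 1.40 CPM in KO hydrogels, against 21.6 ± 10.3 CPM in KO cores. Further targets went both ways: Ccnd1, Ccn5 and Bambi were higher in the hydrogel and Nkd1 was lower in both genotypes.

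**Figure D3:**
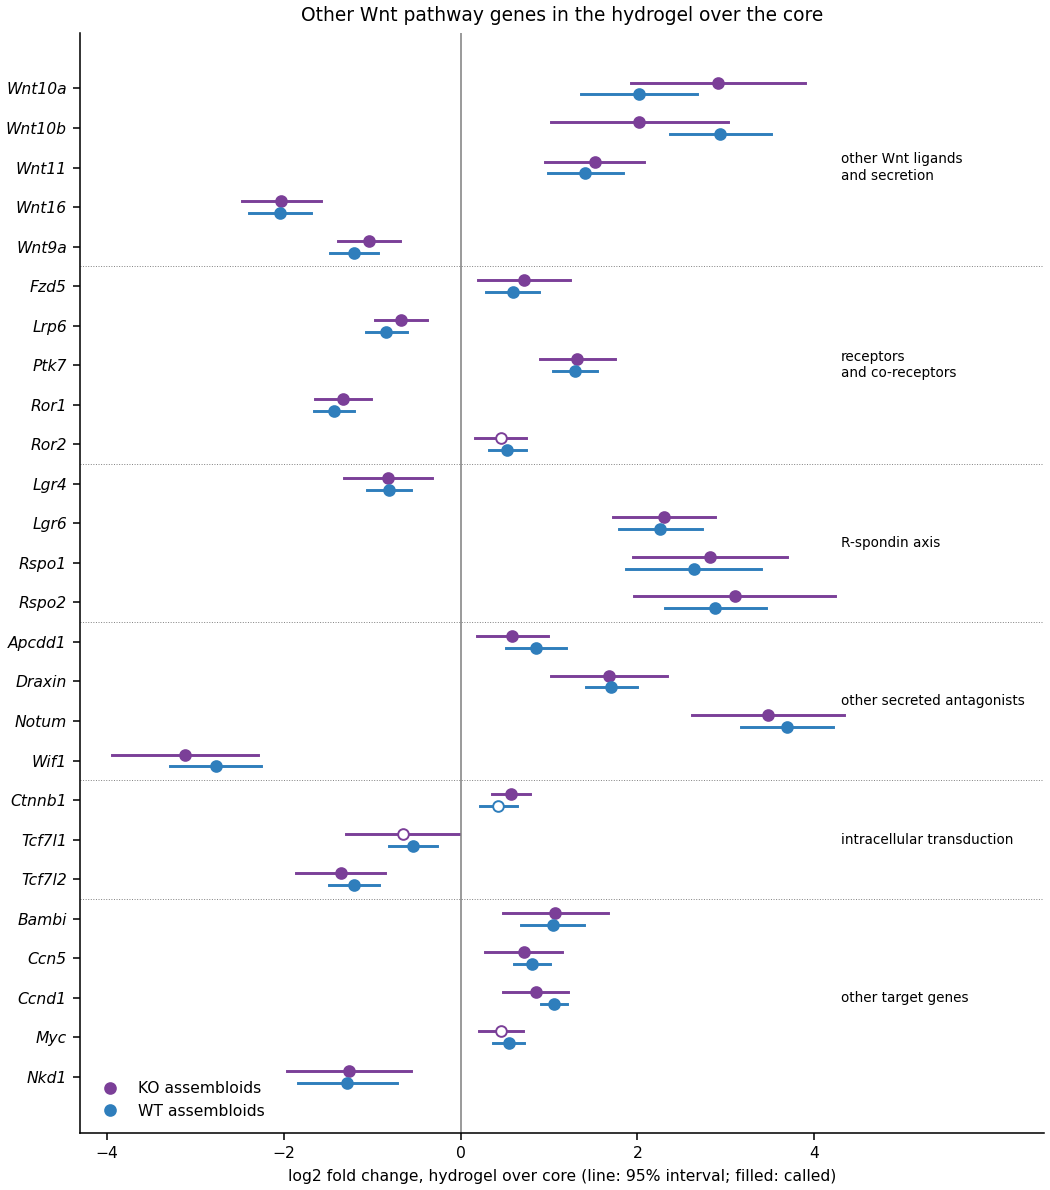
Log2 fold change, hydrogel over core with fibroblasts, of the other Wnt pathway genes named by rule, grouped by list, in KO (upper point) and WT (lower point) assembloids with 95% intervals; filled points passed. Notum (3.47 and 3.69) and Rspo2 and Rspo1 lie to the right, and Wif1 (-3.12 and -2.77) and Wnt16 (-2.03 and -2.05) to the left.

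The compartments differ in more than culture position, since seeded Achilles cells were set against resident cells of tail fascicles, so tissue of origin and compartment cannot be told apart. Of the 8 tendon fibroblast markers, 3 in KO and 6 in WT assembloids passed as lower in the hydrogel, against 24.6% and 24.7% of all genes. Their sums overlapped in KO assembloids, at 15498 to 67453 CPM in hydrogels, against 25648 to 46302 CPM in cores. They also overlapped in WT assembloids, at 20608 to 47103 CPM in hydrogels, against 28508 to 56426 CPM in cores. Macrophage and leukocyte markers had positive fold changes for 8 of 8 in both, passing for 0 of 8 in KO and 4 of 8 in WT assembloids. Summed macrophage and leukocyte markers spanned 2266 to 29795 CPM in KO hydrogels, against 7477 to 9180 CPM in KO cores with fibroblasts, and 9487 to 17116 CPM in WT hydrogels, against 8454 to 9209 CPM in WT cores with fibroblasts. The 7 extrinsic or sheath fibroblast markers (Pdgfra and Thy1 among them) separated the compartments without overlap, with sums of 1060 to 1339 CPM in KO hydrogels, against 1430 to 1676 CPM in KO cores with fibroblasts, and 1054 to 1285 CPM in WT hydrogels, against 1645 to 1960 CPM in WT cores with fibroblasts, and 3 (KO) and 4 (WT) of the 7 were lower and 1 higher in the hydrogel. Schwann cell markers were also higher in the hydrogel (3 of 3 tested in each genotype, with sums of 17.3 to 49.4 CPM in KO and 21.8 to 49.2 CPM in WT hydrogels, against 3.30 to 5.43 CPM in KO and 3.26 to 5.93 CPM in WT cores), as were 3 of 5 smooth muscle and pericyte markers and 3 of 4 chondrocyte markers. The chondrocyte sums overlapped and were not higher in the hydrogel. Their medians were 1099 CPM in KO hydrogels, against 1348 CPM in KO cores with fibroblasts. In WT assembloids they were 1363 CPM in hydrogels, against 1691 CPM in cores. The part of all these markers in the differences was not tested. Adjusted p-values throughout set a difference of group means against the spread between these libraries. The seeded cells were mixed from several mice, so for them this is not a spread between single animals.

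Among the hydrogels themselves, the levels of most antagonists ran with or against the summed cell type markers of the library. Across the 12 hydrogels, which share the seeded cell type, the log2 level of Sfrp2 had a Pearson correlation of 0.95 with the summed tendon fibroblast markers, and that of Sfrp1 0.91, Frzb 0.86 and Dkk2 0.85. Sfrp4 ran against the same markers (-0.76) and with the macrophage and leukocyte markers (0.71), while Dkk2 and Sfrp2 ran against the macrophage and leukocyte markers (-0.84 and -0.79). Sfrp2 correlated with Ccn4 (0.90), Sfrp1 (0.90) and Frzb (0.85) over these hydrogels. Without KO hydrogel replicate 5 the correlations with tendon markers were 0.92 for Sfrp2, 0.93 for Sfrp1, 0.83 for Frzb, 0.75 for Dkk2 and -0.58 for Sfrp4, and those with macrophage and leukocyte markers were 0.25 for Sfrp4, -0.54 for Dkk2 and -0.74 for Sfrp2. These correlations describe 12 libraries that share scaling and, in part, cell pools. Levels also differed by run code. Replicates 5 and 6 of both hydrogel groups share a run code, and Sfrp4 read 4.61 to 10.1 CPM in them, against 11.4 to 22.4 CPM in the other hydrogels. Frzb read 6.72 to 9.23 CPM in these replicates, against 2.97 to 5.58 CPM in the others. The part of the run code in these correlations was not tested.

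**Figure D4:**
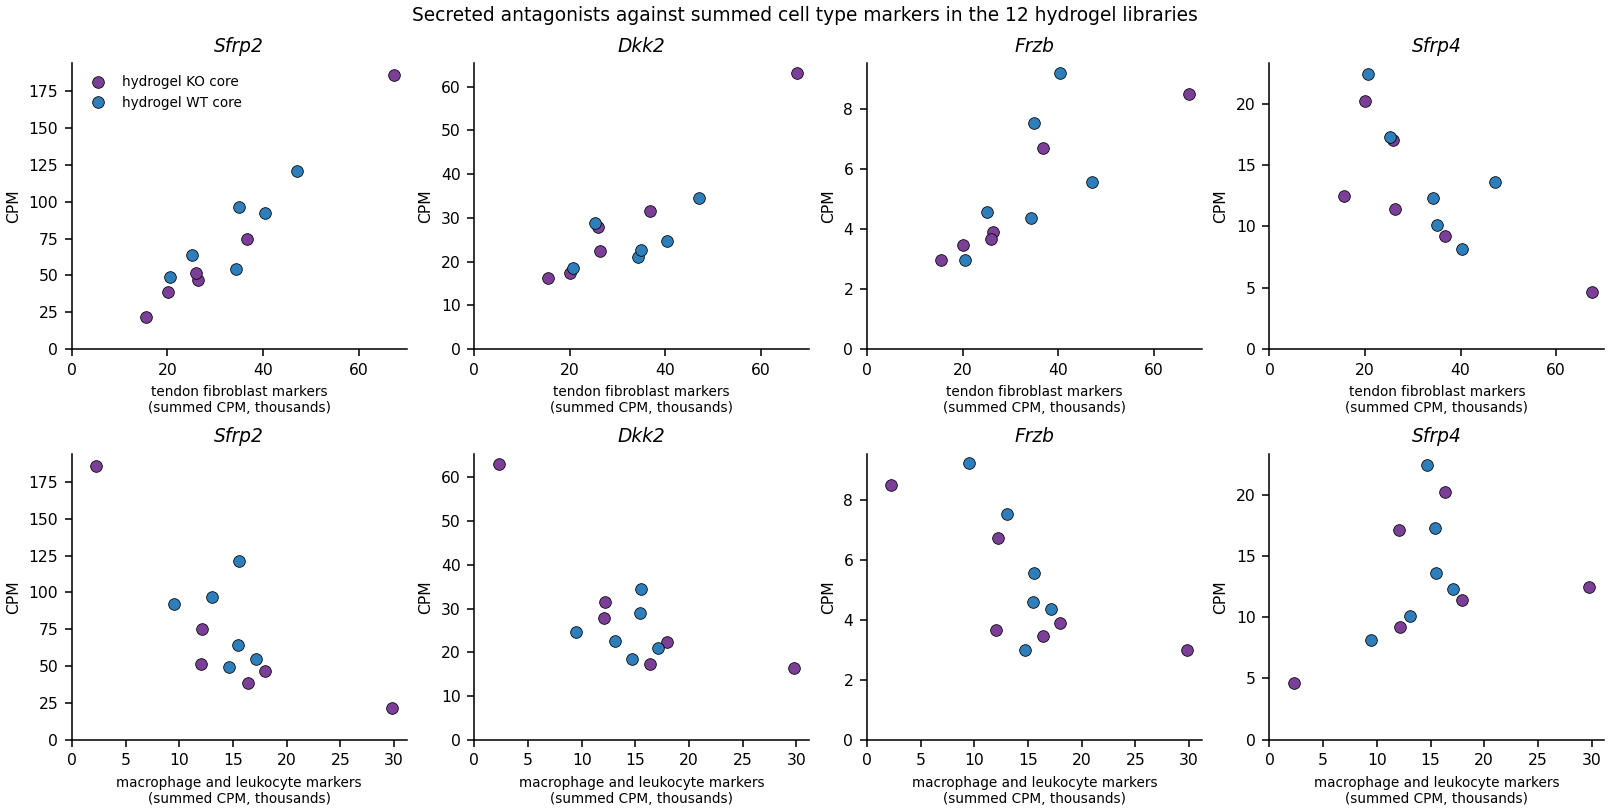
Levels of Sfrp2, Dkk2, Frzb and Sfrp4 (CPM) against the summed CPM of tendon fibroblast markers (upper row) and of macrophage and leukocyte markers (lower row) in the 12 hydrogels around KO and WT cores. KO hydrogel replicate 5 lies at the far end of both marker sums (67453 and 2266 CPM), with the highest Sfrp2 and Dkk2 and the lowest Sfrp4.

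The hydrogels around KO cores were also set against those around WT cores. None of the 9 genes tested passed the study's thresholds in KO against WT hydrogels (unadjusted p under 0.05 and a log2 fold change beyond 0.5; edgeR and DESeq2 each gave 0), where 0.506% of all genes were higher and 0.25% lower by this rule. At an unadjusted p under 0.05 alone, 1 gene qualified, and the lowest adjusted p over all genes was 0.9997. The fold change was negative for 8 of the 9 genes, with a median of -0.18 against -0.01 over all genes. Ccn4 ranged from 32.2 to 58.8 CPM around KO cores (median 43.9 CPM) and from 44.8 to 56.1 CPM around WT cores (median 51.8 CPM), a log2 fold change of -0.25 ± 0.11 (edgeR unadjusted p = 0.036). Wnt5a had -0.15 ± 0.08 (edgeR unadjusted p = 0.0621), and the other 7 ranged from -0.41 for Sfrp1 to 0.20 for Dkk2. The groups overlapped for each of the 9 genes, and 0.158% of all genes did not overlap.

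The count of genes differed without KO hydrogel replicate 5. In that fit, Sfrp2 had a log2 fold change of -0.79 ± 0.31 (edgeR unadjusted p = 0.0248) and Sfrp1 of -0.61 ± 0.27 (edgeR unadjusted p = 0.0419), so that 2 of the genes passed the study's thresholds, with adjusted p-values of 0.878 for both (edgeR). Without replicate 5, summed tendon fibroblast markers were 15498 to 36751 CPM in KO hydrogels, against 20608 to 47103 CPM in WT hydrogels. With all libraries, 0 of these 8 markers passed. Their part in the differences of Sfrp2 and Sfrp1 was not tested. In the other Wnt lists 1 of the 58 genes tested was lower (1.72%, against 0.25% of all genes) and 0 were higher. It was Wif1, at 2.69 ± 1.40 CPM around KO cores and 4.39 ± 1.22 CPM around WT cores (edgeR unadjusted p = 0.0413, adjusted p = 0.9997), and the call held only without KO replicate 4 or WT replicates 5 or 6, being lost in the other 9 of 12 fits that left out 1 library (unadjusted p up to 0.101).

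In WT cores, fibroblasts in the hydrogel were set against a cell-free hydrogel. Ccn4 was the 1 gene of 8 that passed: it read 47.1, 49.5, 65.9 and 45.4 CPM in cores with fibroblasts, against 25.4, 36.9, 30.9 and 37.3 CPM in cell-free cores. The groups did not overlap, as for 12.3% of all genes, and Ccn4 was 1.57-fold higher (log2 fold change 0.65 ± 0.14, edgeR adjusted p = 0.038; exact permutation test, two-sided, p = 0.0286, the smallest that 4 against 4 allows). By the same rule 1.51% of all genes were higher and 1.11% lower. The call was lost when any 1 library was left out except cell-free replicate 4, with log2 fold changes between 0.52 and 0.72 and adjusted p-values between 0.031 and 0.105 over these 8 fits (edgeR). Summed tendon fibroblast markers were 28508 to 56426 CPM with fibroblasts, against 25006 to 43896 CPM in cell-free cores. The sums of extrinsic or sheath fibroblast markers did not overlap, at 1645 to 1960 CPM with fibroblasts, against 1169 to 1416 CPM in cell-free cores, and 1 of 7 of these, 1 of 8 tendon fibroblast and 2 of 4 chondrocyte markers passed as higher. The part of these markers in the differences was not tested.

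Wnt5a read 9.09, 9.04, 9.79 and 11.3 CPM in WT cores with fibroblasts, against 5.20, 5.35, 9.63 and 5.43 CPM in WT cell-free cores. A single cell-free library, replicate 3, reached into the fibroblast group, and the log2 fold change was 0.58 ± 0.21 with it (edgeR adjusted p = 0.143) and 0.86 ± 0.12 without it (edgeR adjusted p = 0.0147). Sfrp1 read 21.8, 37.7, 25.8 and 11.9 CPM with fibroblasts, against 2.31, 16.2, 11.3 and 2.23 CPM without cells. Its log2 fold change of 1.58 ± 0.61 did not pass after adjustment (edgeR adjusted p = 0.169), but each fibroblast library lay above the cell-free library of its own number. Same-numbered WT cores carry the same run code and N number in their titles, and with the replicate as a block Sfrp1 passed at 1.87 ± 0.33 (edgeR adjusted p = 0.0294), so that 2 of the 8 genes passed in that fit, Ccn4 being the other (0.65 ± 0.13, edgeR adjusted p = 0.0368). Sfrp2 had a log2 fold change of -1.19 ± 0.62 (edgeR adjusted p = 0.303; -0.67 ± 0.43 with the block), where 1 cell-free library, replicate 4, held 208 CPM and the other 3 held 27.4 to 38.3 CPM.

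The same addition of fibroblasts to KO cores gave 0 of 10 genes at the adjusted threshold with edgeR, 4 at an unadjusted p under 0.05 and 2 with DESeq2 (Sfrp2 and Wnt5a), where 0.301% of all genes were higher and 0.132% lower. Sfrp2 read 17.2, 16.4, 20.3 and 14.9 CPM in KO cores with fibroblasts, against 63.3, 31.5, 36.0 and 125 CPM in KO cell-free cores. These groups did not overlap, as for 6.28% of all genes, and the log2 fold change was -1.88 ± 0.38 (edgeR adjusted p = 0.0703). Wnt5a read 11.4, 12.2, 9.11 and 12.8 CPM with fibroblasts, against 5.32, 9.36, 6.05 and 6.09 CPM without cells, a log2 fold change of 0.75 ± 0.20 (edgeR adjusted p = 0.154). A fibroblast library at 9.11 CPM and a cell-free library at 9.36 CPM made these groups overlap, and without that cell-free library, replicate 2, both Wnt5a (0.98 ± 0.15, edgeR adjusted p = 0.0172) and Sfrp2 (-2.10 ± 0.34, edgeR adjusted p = 0.0183) passed.

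Same-numbered KO cores deviated together, and 3 of the 10 genes passed when the replicate was fitted as a block. Sfrp2 had a log2 fold change of -1.67 ± 0.33 (edgeR adjusted p = 0.0353) in that fit. Sfrp4 had 1.02 ± 0.20 (edgeR adjusted p = 0.0342) and Sfrp1 0.89 ± 0.19 (edgeR adjusted p = 0.0479). Sfrp4 read 7.51, 7.53, 5.60 and 3.18 CPM with fibroblasts, against 4.95, 3.70, 2.68 and 1.04 CPM without cells, so each fibroblast library lay above the cell-free library of its own number. The difference between KO and WT cores in the response to fibroblasts was tested as an interaction, and 0 of 10 genes passed with edgeR or DESeq2, or at an unadjusted p under 0.05; of all genes, edgeR called 0% higher and 0% lower. The interaction was -0.52 ± 0.27 for Ccn4 (edgeR unadjusted p = 0.0747) and 0.17 ± 0.31 for Wnt5a.

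**Figure D5:**
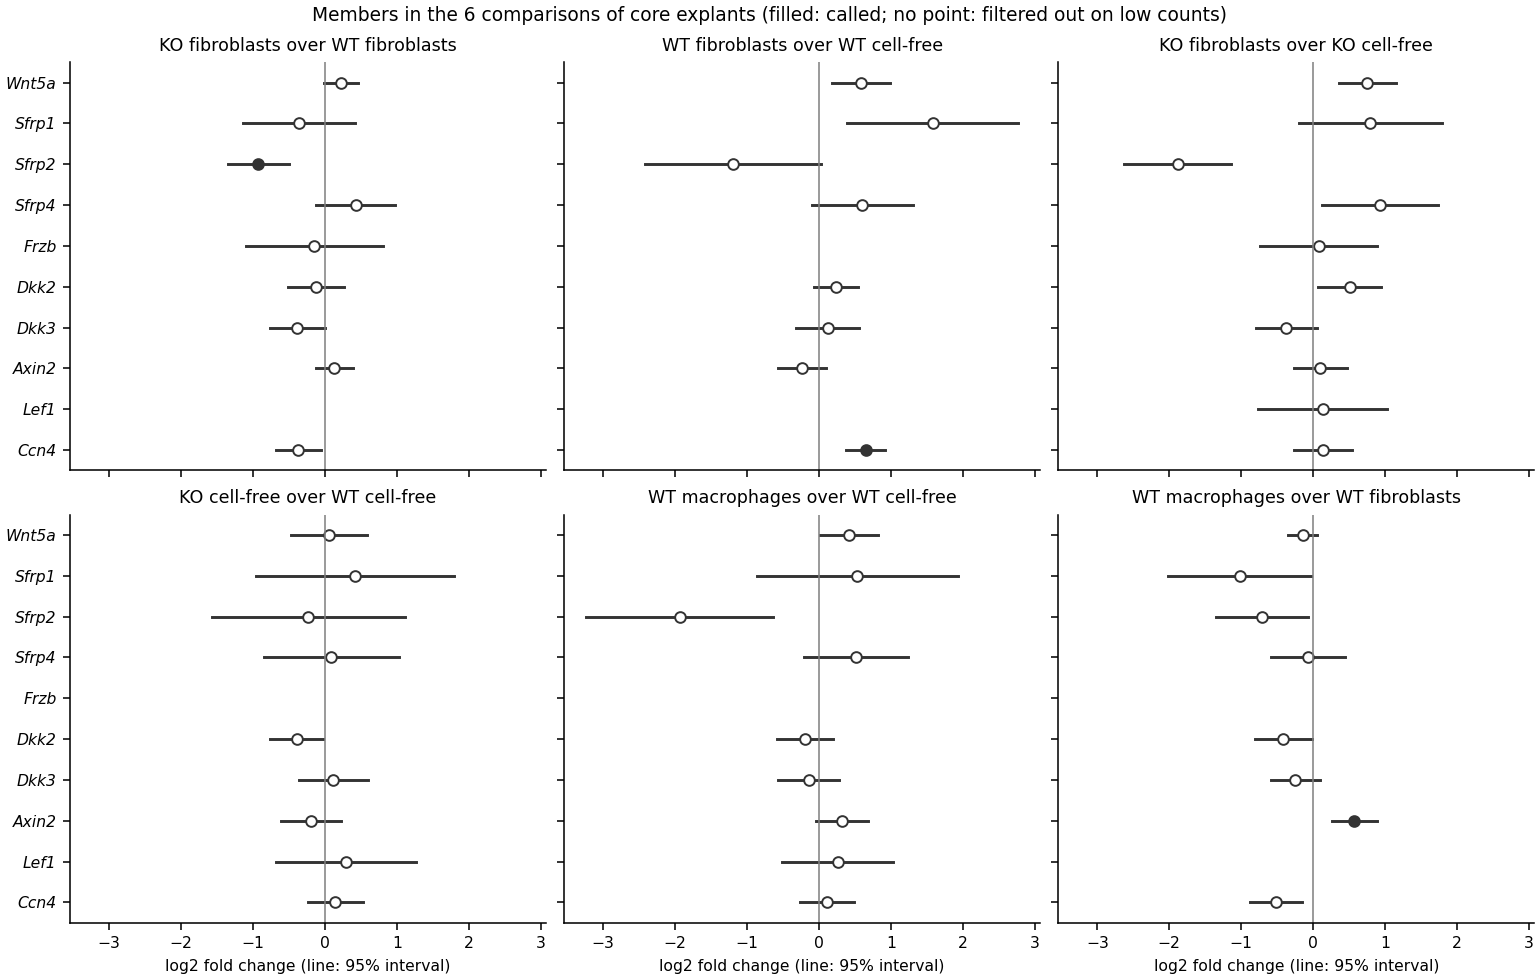
Log2 fold changes with 95% intervals in the 6 comparisons of cores; filled points passed the threshold of their comparison, and genes without a point were filtered out on low counts. Sfrp2 lies below 0 in each panel (-0.93 and -1.88 in the panels of KO cores with fibroblasts), and Wnt5a lies above 0 where cores with fibroblasts are set against cell-free cores (0.58 and 0.75). An interval can leave out 0 where the test did not pass.

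KO cores with fibroblasts were set against WT cores with fibroblasts under the study's thresholds of an unadjusted p under 0.05 and a log2 fold change beyond 0.5, by which 1.55% of all genes were higher and 0.883% lower. Sfrp2 was the 1 gene of 9 that passed, and it was lower in KO cores: 17.2, 16.4, 20.3 and 14.9 CPM, against 31.3, 19.0, 41.4 and 40.9 CPM in WT cores. The log2 fold change was -0.93 ± 0.22 (edgeR unadjusted p = 0.00166, adjusted p = 0.457), and a single WT library at 19.0 CPM reached into the KO range (exact permutation test, two-sided, p = 0.0571). With DESeq2 the log2 fold change was -0.93 ± 0.22 and the adjusted p was 0.0147, so adjustment gave different outcomes with DESeq2 and edgeR. Sfrp2 kept an unadjusted p under 0.05 without any single library, with log2 fold changes between -1.12 and -0.80 (edgeR), and lost it where all 5 core groups shared 1 fit (-0.93, unadjusted p = 0.112). The groups overlapped for each of the 9 genes, and 4.63% of all genes did not overlap. Summed tendon fibroblast markers were 25648 to 46302 CPM in KO cores, against 28508 to 56426 CPM in WT cores (1 of 8 lower), and extrinsic or sheath fibroblast markers 1430 to 1676 CPM, against 1645 to 1960 CPM (1 of 7 lower), while 2 of 4 chondrocyte markers were lower. The part of these markers in this difference was not tested. Ccn4 had -0.37 ± 0.16 (edgeR unadjusted p = 0.0423), short of the fold threshold. In the further lists, Wnt6 was higher in KO cores and Tnfrsf19 lower, each at an unadjusted p under 0.05 (1 of 56 in each direction, 1.79%). Wnt6 was low in both groups, at 0.81 ± 0.21 CPM in KO cores and 0.42 ± 0.20 CPM in WT cores. The call of Wnt6 was lost without KO replicate 1 and that of Tnfrsf19 without any 1 of KO replicates 1 and 3 and WT replicates 3 and 4 (unadjusted p up to 0.101, edgeR).

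In cell-free cores, KO against WT gave 0 of 9 genes with edgeR and DESeq2 and 0 at an unadjusted p under 0.05, and edgeR called 0% of all genes higher and 0% lower, while 1.41% did not overlap (339 genes had an unadjusted p under 0.05, and DESeq2 called 14). Sfrp2 read 63.3, 31.5, 36.0 and 125 CPM in KO cell-free cores, against 27.4, 38.3, 28.3 and 208 CPM in WT cell-free cores. Replicate 4 was the highest in both genotypes, and the log2 fold change was -0.23 (95% interval -1.57 to 1.12). The fold changes of the other 8 lay between -0.39 for Dkk2 and 0.42 for Sfrp1. The comparisons of cores share control libraries, so their values stand side by side and are not independent of each other.

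Macrophages in the hydrogel were compared with both other WT core groups. Against cell-free cores, 0 of 9 genes passed with edgeR or DESeq2 and 1 had an unadjusted p under 0.05, where 0.754% of all genes were higher and 3.85% lower and 14.3% did not overlap. That gene was Sfrp2, with 12.1, 14.9, 33.3 and 15.9 CPM in cores with macrophages, against 27.4, 38.3, 28.3 and 208 CPM in cell-free cores. Its log2 fold change of -1.94 ± 0.66 (edgeR adjusted p = 0.126) shrank to -0.67 without cell-free replicate 4 (edgeR adjusted p = 0.317), and DESeq2 gave it no p. Without cell-free replicate 3, Wnt5a passed with a log2 fold change of 0.69 ± 0.12 (edgeR adjusted p = 0.0139), and with all libraries it did not (0.41 ± 0.21). In the further target list Ccnd1, a cell cycle cyclin, was lower in cores with macrophages at 61.6 ± 13.1 CPM, against 262 ± 115 CPM in cell-free cores (edgeR adjusted p = 0.00377).

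Against WT cores with fibroblasts, cores with macrophages had higher Axin2: 12.1, 9.62, 9.84 and 7.86 CPM, against 6.68, 6.47, 6.43 and 8.51 CPM. The groups overlapped by 1 library on each side, and the log2 fold change was 0.57 ± 0.16 (edgeR adjusted p = 0.0321), the 1 call among 8 genes where 5.28% of all genes were higher and 5.5% lower. The call was lost without any 1 of replicates 1, 2 and 3 of either group, with log2 fold changes between 0.44 and 0.68 and adjusted p-values up to 0.0912 (edgeR). Summed tendon fibroblast markers were 19121 to 33278 CPM with macrophages, against 28508 to 56426 CPM with fibroblasts (1 of 8 lower). The sums of extrinsic or sheath fibroblast markers did not overlap, at 1154 to 1505 CPM with macrophages, against 1645 to 1960 CPM with fibroblasts, with 2 of 7 lower, and 2 of 4 chondrocyte markers were lower. The part of these markers in the differences of Axin2 and Ccn4 was not tested. The TMM factors of these macrophage libraries were 1.09 to 1.37, above the 0.96 to 1.05 of the fibroblast group. On the library total alone the level difference of Axin2 was 0.75, against 0.48 with TMM (log2 CPM). Ccn4 read 28.9, 39.5, 44.7 and 24.4 CPM in cores with macrophages, against 47.1, 49.5, 65.9 and 45.4 CPM with fibroblasts, without overlap, as for 27.9% of all genes. Its log2 fold change was -0.51 ± 0.19 (edgeR adjusted p = 0.0738), and in the fit paired by replicate it passed at -0.54 ± 0.10 (edgeR adjusted p = 0.0101). In that blocked fit 4 of 8 genes passed, with Sfrp1 (-1.22 ± 0.25, edgeR adjusted p = 0.0161) and Sfrp2 (-0.76 ± 0.20, edgeR adjusted p = 0.0312) lower beside Ccn4, and Axin2 higher.

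Of 56 other Wnt genes tested in the same pair of groups, 3 (5.36%) were higher in cores with macrophages and 1 (1.79%) was lower, against 5.28% and 5.5% of all genes, so their share was near or below that of all genes. Those higher were the receptor Lgr5 (20.8 ± 3.3 CPM, against 10.2 ± 3.4 CPM with fibroblasts), the receptor Lgr4 (116 ± 21 CPM, against 84.9 ± 14.5 CPM) and the TCF factor Tcf7l2 (38.7 ± 4.2 CPM, against 28.5 ± 4.2 CPM). Leaving out 1 library at a time ended the Lgr4 call in 6 of 8 fits (kept without macrophage replicate 1 or fibroblast replicate 4; adjusted p up to 0.090, edgeR) and the Tcf7l2 call in 5 of 8 (kept without macrophage replicates 2 or 4 or fibroblast replicate 4; adjusted p up to 0.0628, edgeR), and none of these fits ended that of Lgr5. Ccnd1 was the 1 that was lower, at 61.6 ± 13.1 CPM, against 189 ± 14 CPM with fibroblasts. The median log2 fold change of these 56 was -0.01.

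The difference between genotypes in the compartment contrast was tested for the 10 genes as a second interaction, in which 0 passed with edgeR or DESeq2 and edgeR called 0% of all genes higher and 0% lower. Wnt5a had the lowest p, with an interaction of -0.34 ± 0.15 on the log2 scale (edgeR unadjusted p = 0.0301, adjusted p = 0.9999). Its hydrogel excess was the smaller in KO assembloids (1.15) and the larger in WT assembloids (1.52), from lower KO than WT means in hydrogels (27.4 and 29.7 CPM) and higher KO than WT means in cores with fibroblasts (11.4 and 9.80 CPM).

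Over the 20 cores, the genes whose log2 levels ran most like each of the 10 were drawn from 12042 genes. Wnt5a ran closest to Grb14 (Pearson r = 0.92), Sema5a (0.92) and Prkd1 (0.90). Ccn4 ran closest to Serinc4 (0.93), Rflnb (0.91) and the metalloproteinase Adam12 (0.90), and Axin2 to Rere (0.92), Kmt2a and Gpatch8 (both 0.91). The median r with all genes compared was -0.34 for Axin2 and lay between -0.15 (Lef1) and 0.19 (Sfrp2) for the others. Sfrp1 followed Pcdh19 (0.90), the laminin chain Lamb1 (0.90) and the interleukin-1 receptor Il1r1 (0.90), and Sfrp2 followed Uchl1 and Dop1a (both 0.87) and Myof (0.84). Frzb and Lef1, with few counts in cores, reached only 0.76 (Epha7) and 0.66 (Nckap5). Among the 10 genes, Sfrp1 ran with Sfrp4 (0.82) and Ccn4 (0.80), and Sfrp2 ran against Sfrp4 (-0.62) and Wnt5a (-0.59); over the 12 hydrogels Sfrp2 ran with Wnt5a (0.79). The 20 cores come from 5 groups and few mice, so these values describe the set and carry no test.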

How the data were processed

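RNA was sequenced from 20 core and 12 hydrogel libraries prepared with a stranded ribosomal depletion kit. The paper states that pools needed an RNA integrity number of at least 2 and enough RNA. All hydrogel pools but only part of the core pools passed. Selection on RNA quality thus differed between the compartments, and its part in their differences was not tested. The deposited files hold expected counts per gene that the authors made with kallisto 0.46.1; GRCm39 and DESeq2 are named in the submitters' processing notes, while no source read here states which annotation release was used. Expected counts assign shared reads by likelihood, so near-identical genes may trade counts. Counts were rounded, filtered with filterByExpr, scaled by TMM and tested in edgeR 4.0.16 (R 4.3.3) on all genes of the groups compared, as the study ran 1 comparison at a time. Calls needed a log2 fold change beyond 0.5 and a Benjamini-Hochberg adjusted p under 0.05, or an unadjusted p under 0.05 in the KO against WT comparisons of hydrogels and of cores with fibroblasts, as in the study's methods. Levels of single genes were compared by exact permutation tests of log2 CPM with a prior count of 2. The interaction of genotype and compartment and the sex block were added after the data were seen. The 10 genes and the lists were chosen with earlier results of these data known. All 10 genes are described, with up to 4 called genes of lowest p per list and the 3 genes of highest correlation. Intervals of 95% are the log2 fold change ± 1.96 SE, a normal quantile, and are narrow for groups of few libraries. Such an interval can therefore leave out 0 where the edgeR test does not pass. In KO against WT cell-free cores, Dkk2 had an interval of -0.77 to -0.02 (edgeR unadjusted p = 0.066).

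Pairs were taken from the titles, where same-numbered cores, and same-numbered hydrogels, share a run code and an N number; hydrogels were matched to cores by that run code and N number, since their replicate numbers differ. Paired libraries deviated together with a correlation over 0.1 in every pair for hydrogels of KO against WT cores (0.26 to 0.60), hydrogel against core in WT (0.23 to 0.32) and KO (0.23 to 0.42) assembloids, macrophage against cell-free (0.19 to 0.34) and fibroblast (0.17 to 0.25) WT cores, and KO cores with fibroblasts against cell-free KO cores (0.20 to 0.39). Correlations were 0.064 to 0.42 for WT cores with fibroblasts against cell-free, and at least 1 pair was under 0.1 in both KO against WT comparisons of cores. Alternatives were DESeq2 1.42.0, other size factors, filters, thresholds and blocks, a fit of all core groups, and leaving out each library. The procedure was tested on simulated data.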

Additional observations from a re-analysis of the deposited data

Results flagged for a closer look

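Of 70 groups of libraries examined for a single extreme value, 9 held one by Dixon's criterion, which chance meets in about 5% of groups. Wnt5a read 34.5 CPM in WT hydrogel replicate 2 (nearest 29.4 CPM) and 9.63 CPM in WT cell-free core replicate 3 (nearest 5.43 CPM), the library without which Wnt5a passed in WT cores with fibroblasts and with macrophages. Sfrp2 read 186 CPM in KO hydrogel replicate 5 (nearest 74.8 CPM) and 208 CPM in WT cell-free core replicate 4 (nearest 38.3 CPM). Frzb read 0.0671 CPM in WT core with macrophages replicate 1 (nearest 0.254 CPM) and 0.727 CPM in WT cell-free core replicate 2 (nearest 0.237 CPM), both at low counts. Dkk2 read 63.1 CPM in KO hydrogel replicate 5 (nearest 31.5 CPM). Axin2 read 6.38 CPM in KO core with fibroblasts replicate 1 (nearest 7.94 CPM) and 8.51 CPM in WT core with fibroblasts replicate 4 (nearest 6.68 CPM).

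The hydrogel excess of Wnt5a differed between KO and WT assembloids by -0.34 on the log2 scale at an unadjusted p of 0.0301 (edgeR), and this did not hold after adjustment (adjusted p = 0.9999).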

How the results depend on the processing

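Of 521 alternative values of the 10 genes' fold changes, 479 kept their direction and side of the threshold and 3 reversed. All 3 were of Ccn4 between hydrogel and core, whose log2 fold change of -0.09 in WT assembloids spanned -0.139 to 0.0484 with 1 library left out (0.0484 without WT core replicate 3), and that of 0.03 in KO assembloids spanned -0.0280 to 0.169 (-0.0280 without KO core replicate 4, and also below 0 without KO hydrogel replicate 5). Calls between hydrogel and core numbered 6 or 7 in WT and 5 to 7 in KO assembloids under all settings. In hydrogels of KO against WT cores, 0 genes became 1 without the fold threshold and 0 to 2 with 1 library left out (2 without KO hydrogel replicate 5). In WT cores with fibroblasts against cell-free, 1 became 3 at unadjusted p, 2 with the replicate block and 2 with the run code as a block, 0 with all 5 core groups in 1 fit and 0 to 1 with 1 library left out. In KO against WT cores with fibroblasts, 1 became 2 without the fold threshold, 0 at the edgeR adjusted p, 0 with all core groups, and 1 to 3 with 1 library left out (2 without WT replicate 1 or KO replicates 3 or 4, 3 without KO replicate 2). In that comparison DESeq2 gave Sfrp2 an adjusted p of 0.0147. In macrophage against cell-free cores, 0 became 1 at unadjusted p, 1 with all core groups and 0 to 1 with 1 library left out. In KO cores with fibroblasts against cell-free, 0 became 4 at unadjusted p, 2 with DESeq2, 1 without the filter, 3 with the replicate block and 0 to 2 with 1 library left out. In macrophage against fibroblast cores, 1 became 2 at unadjusted p, 2 with DESeq2, 4 with the replicate block, 3 with the run code block, 2 with the sex block chosen after the data were seen, 0 with all core groups and 0 to 2 with 1 library left out. The replicate block changed no call of the 10 genes beyond these and Sfrp4 in KO assembloids, and no paired fit was made for the interaction of genotype and compartment. Over all genes, edgeR called 69 in KO cores with fibroblasts against cell-free, DESeq2 502 and the replicate block 408, and for WT cores with fibroblasts edgeR called 423 and DESeq2 774. Without the fold threshold 404 genes had an unadjusted p under 0.05 between hydrogels, against 115 with it, and without the filter 10811 (KO) and 11480 (WT) genes were called between hydrogel and core, against 6688 and 6870. Other size factors moved the median of all genes by at most 0.03.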
